A study of Homo sapiens with 19 samples.

Results

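The RNA of the cytoplasm was compared with the RNA of whole cells in K562, an established human erythroleukaemia cell line that expresses fetal globins, to see which transcripts of the whole cell are depleted from its cytoplasm. The comparison takes the 4 cytoplasm and the 4 whole-cell libraries, 8 of the 19 libraries of the series, and all 58051 human genes of the deposited exon and gene-body count tables. All 8 libraries carry the cell line K562 and the treatment "none" in their labels, and all were made from total RNA depleted of ribosomal RNA, with synthetic yeast transcripts added as spike-ins. The 4 nuclear wash and 4 nucleus libraries of the same cells entered the low-count filter and the estimate of spread. They serve below to show in which of them the depleted transcripts stood higher relative to the typical gene. How the wash was made is not stated in the labels. The labels number the replicates 1 to 4 in each fraction but do not tell whether each is a culture of its own, so the p-values reflect spread between libraries that may be technical. K562 is a single cancer line, and every value below is from that line.

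A messenger RNA is transcribed and spliced in the nucleus, exported through nuclear pores and translated in the cytoplasm, on free ribosomes or, for secreted and membrane proteins, on ribosomes bound to the endoplasmic reticulum. Many long noncoding RNAs, the small nucleolar RNAs and the primary transcripts of microRNAs stay in the nucleus, where they act or are cut. Whole-cell RNA contains all of these pools, so a transcript that sits outside the cytoplasm takes a smaller share of the cytoplasmic library than of the whole-cell library.

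Exon counts per library were 2616547 to 6115517 in whole cells and 5561300 to 7955415 in cytoplasm, and spike-ins took 0.192 to 0.232% and 0.405 to 0.457% of them. All 10 of 10 K562 markers (among them HBG1, GATA1 and TFRC) reached at least 1 CPM (counts per 1000000 counts) in every library, with summed levels of 3160 to 3816 CPM in whole cells and 3756 to 5157 in cytoplasm. The 19 markers of other lineages summed to 159.9 to 173.9 CPM in whole cells and 174.6 to 187.2 in cytoplasm, with CD79A and CDH5 at 0 in both groups and MS4A1 and CDH1 also at 0 in cytoplasm. CPM values here are scaled so that the typical gene does not differ between libraries (TMM scaling). A log2 fold change, cytoplasm over whole cell, therefore says how a gene stands relative to the typical gene, and fewer cells and less RNA per cell cannot be told apart. With library sizes taken from the spike-ins in their place, the median gene moved by -1.23 and 0 genes were called higher by edgeR, also 0 at an unadjusted p under 0.05; 50 of 15923 had a fold change above 0. On gene-body counts, 564 genes annotated with a single exon and overlapping no other gene moved by a median of 0.83 against their exon value (quartiles 0.83 and 0.84), and genes of 2 or more exons by 0.38, so each gene-body value below carries a shift in scale beside any intronic reads, and its sign is not comparable with that on exon counts. Unless their spike-in value is given beside them, "higher" below means higher relative to the typical gene.

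A large set of transcripts was depleted from the cytoplasm, and a smaller set stood above the typical gene by modest amounts. Of 15940 genes tested on exon counts, 4406 (27.6%) were lower in cytoplasm than in whole cells and 3557 (22.3%) were higher, with 7977 not called, at an adjusted p under 0.05 (quasi-likelihood test of edgeR, Benjamini-Hochberg over all tested genes). The losses were deep and the gains shallow: 3263 genes were lower by at least 2-fold and 215 were higher by that much. The middle 50% of genes lay between -0.77 and 0.40. Cytoplasmic RNA is a part of whole-cell RNA, so gains relative to the typical gene are bounded and losses are not. This imbalance in size therefore cannot be read as a result of its own. Within column-name prefix 1 (replicates 1 and 2) 3465 genes were lower and 2551 higher, and within prefix 2 (replicates 3 and 4) 4461 and 3414. Without any composition factor the split was 5717 lower and 1400 higher, because that scaling moved the median gene by -0.24.

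Annotation class separated the losses. The tested genes include some that passed the low-count filter only through the nucleus or wash libraries, which can add to the lower counts. Of 11310 protein-coding genes tested, 2036 were lower and 3214 higher, with a median log2 of 0.14, against 344 lower and 26 higher of 634 long intergenic noncoding RNAs (lincRNAs), with a median of -1.12. Sense intronic RNAs, which lie inside an intron of another gene on the same strand, stood at -2.42 with 186 of 224 lower, and small nucleolar RNAs at -2.05 with 65 of 80 lower and 0 higher. Antisense RNAs were more mixed, with 566 of 1481 lower, 163 higher and a median of -0.40. Pseudogenes stood at -1.17, with 773 of 1472 lower. Without a stated strand setting of the counting, reads of an antisense or nested gene cannot be told from those of the gene around it. Genes nested within another gene on the same strand were lower in 737 of 1071 cases (median -2.11), those nested on the opposite strand in 993 of 2053 (-0.84), and those not nested in 2628 of 12731 (0.09). LincRNAs that overlap no other gene were still lower in 103 of 224 cases, with a median of -0.89, whereas protein-coding genes that overlap no other gene had a median of 0.24, with 404 lower and 1132 higher of 3299.

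**Figure D1:**
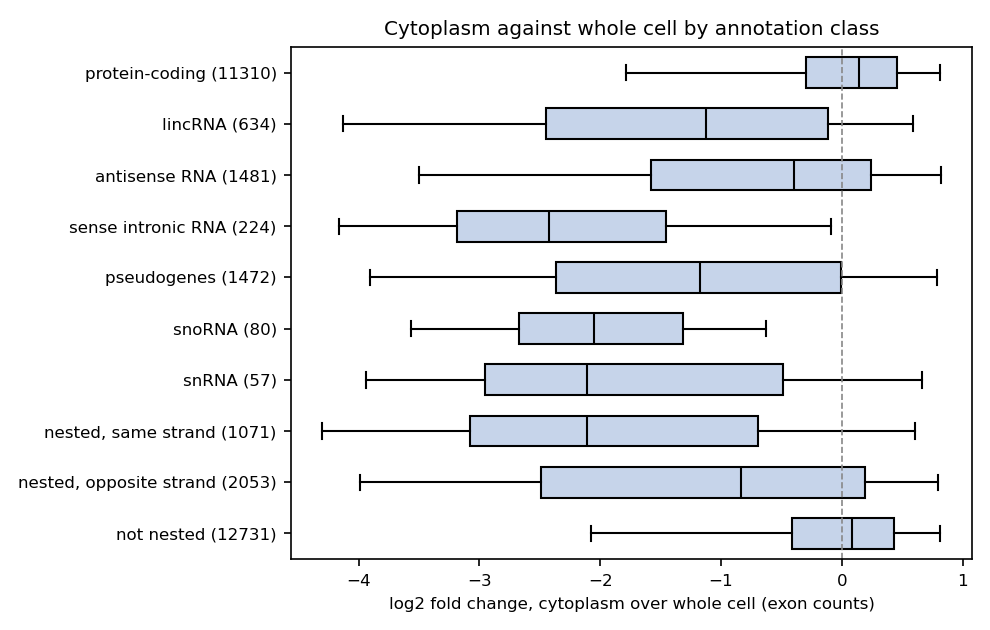
Log2 fold changes of exon counts, cytoplasm over whole cell, for tested genes by annotation class and by nesting in another gene (number of genes in parentheses; box, quartiles; line, median; whiskers, 5th to 95th percentile). The medians run from 0.14 for protein-coding genes to -2.42 for sense intronic RNAs.

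Nuclear long noncoding RNAs had the lowest median of the 22 gene lists on exon counts. On gene-body counts transcripts that host microRNAs lay lower, at -1.69 against -1.34. Of 13 tested members of this list, 8 were lower and 0 higher, with a median log2 of -1.80 against 0 for all genes. MALAT1, a nuclear speckle RNA (ENSG00000251562, chr11:65497688-65506516, plus strand, GRCh38), took 2.59, 2.7, 3.05 and 2.59% of the exon counts outside rRNA in whole cells and 0.379, 0.372, 0.280 and 0.359% in cytoplasm. The highest cytoplasm value lay far below the lowest whole-cell value, and the log2 fold change was -2.80 (SE 0.35, edgeR adjusted p = 2.23e-06). NEAT1, the scaffold RNA of paraspeckles (ENSG00000245532, chr11:65422774-65445540, plus strand), stood at 584, 760, 840 and 755 CPM in whole cells and at 220.0, 218, 200.3 and 206 CPM in cytoplasm. Its groups did not overlap either, with a log2 of -1.80 (SE 0.13, edgeR adjusted p = 1.57e-09).

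KCNQ1OT1, a single-exon RNA that silences imprinted neighbours at its locus (ENSG00000269821, chr11:2608328-2699994, minus strand, opposite to KCNQ1, which contains it), had 202, 263, 174 and 165 CPM in whole cells against 21.2, 17.2, 13.8 and 13.6 in cytoplasm. That is 12.2-fold lower, with no overlap (edgeR adjusted p = 4.13e-09). FTX, a noncoding gene of the X-inactivation centre, was lower by a log2 of -2.75, LINC-PINT by -5.24, MIAT by -2.50, MEG3 by -2.0 and SNHG14 by -0.46. Nuclear in name did not always mean depleted. TUG1, chosen after its values were seen, stood at 138, 156, 160 and 140 CPM in whole cells and 169, 158, 151 and 153 in cytoplasm (log2 0.08, edgeR adjusted p = 0.554). It was not called, and neither were JPX (-0.35), DLEU2 (-0.09), PAXIP1-DT (-0.05) and PVT1 (0.15). NORAD, a long noncoding RNA known to bind Pumilio proteins in the cytoplasm (ENSG00000260032, chr20:36045622-36050960, minus strand), lay the other way. Its 339, 357, 414 and 312 CPM in whole cells and 552, 603, 594 and 805 CPM in cytoplasm did not overlap, at a log2 of 0.84 (edgeR adjusted p = 9.34e-05), or -0.41 with spike-in library sizes; NORAD was chosen after its values were seen.

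**Figure D2:**
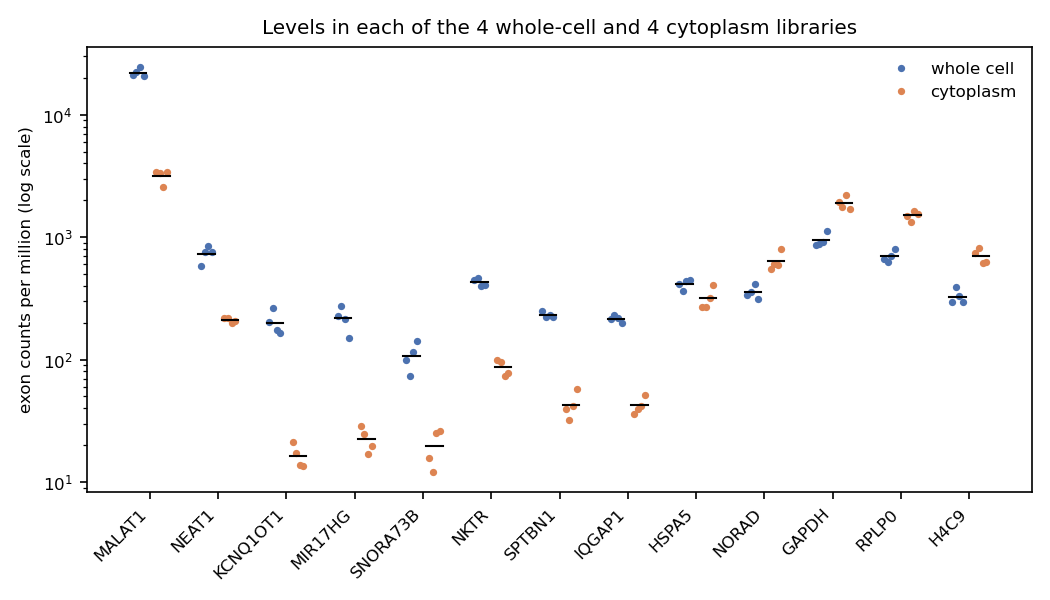
Exon CPM (log axis) in each of the 4 whole-cell and 4 cytoplasm libraries for 13 named transcripts; points are libraries, black bars group means. MALAT1, NEAT1, KCNQ1OT1, MIR17HG, SNORA73B, NKTR, SPTBN1 and IQGAP1 are lower in every cytoplasm library, HSPA5 overlaps, and NORAD, GAPDH, RPLP0 and H4C9 are higher relative to the typical gene, with all 4 below 0 with spike-in library sizes.

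Small nucleolar RNAs (snoRNAs) guide chemical modification of ribosomal RNA in the nucleolus, and small Cajal body RNAs (scaRNAs) do so for the spliceosomal RNAs. Of 36 tested genes with a SNORA symbol 27 were lower, of 35 with a SNORD symbol 30, and of 9 with a SCARNA symbol 7, and 0 were higher in any of these families. The H/ACA type ends in ACA followed by 3 bases, and the C/D type has a C box near its start and a D box near its end. The sequences of 2 depleted members are given to show the ACA element, which is in capitals. SNORA73B lies at chr1:28508559-28508762 (plus strand) and SCARNA13 at chr14:95533355-95533629 (minus strand), from GENCODE 29 on GRCh38, 5′ to 3′.
SNORA73B: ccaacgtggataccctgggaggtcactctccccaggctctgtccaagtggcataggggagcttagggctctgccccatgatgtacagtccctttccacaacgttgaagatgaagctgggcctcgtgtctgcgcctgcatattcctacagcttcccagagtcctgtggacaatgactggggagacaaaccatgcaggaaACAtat
SCARNA13: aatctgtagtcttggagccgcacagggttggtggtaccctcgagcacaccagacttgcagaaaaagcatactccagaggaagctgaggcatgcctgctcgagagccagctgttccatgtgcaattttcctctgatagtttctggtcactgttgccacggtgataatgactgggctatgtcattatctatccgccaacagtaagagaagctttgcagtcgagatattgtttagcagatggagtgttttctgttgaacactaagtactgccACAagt

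SNORA73B had 98.3, 73.4, 115 and 143 CPM in whole cells and 15.7, 12.2, 25.3 and 26.2 CPM in cytoplasm. SCARNA13 had 16.6, 13, 14.6 and 15.2 CPM against 3.77, 2.15, 2.5 and 2.66 (log2 -2.43 for each). Neither overlapped between the groups. The classes did not stand apart from each other by their medians: genes with ACA at that place had a median of -2.06 (25 of 32 lower), those with C and D boxes near the ends -2.10 (22 of 24 lower) and those with neither -2.0 (23 of 31 lower). These genes mostly sit in introns of host genes, so reads of unspliced host RNA and of the small RNA itself cannot be told apart in the counts.

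The list of small nuclear and other structured RNAs had 8 of 17 tested members lower and 1 higher (median -0.56, or 0.62 on gene-body counts). SCARNA6 (-2.55), SCARNA5 (-2.38), SCARNA7 (-1.84), SNORD17 (-1.59), SNORD3A (-1.20), which is the U3 RNA of the nucleolus, and RNU5B-1 (-1.42), an RNA of the spliceosome, were lower. The other spliceosomal RNAs of the list, RNU4ATAC (0.38), RNU5A-1 (-0.48), RNU4-1 (-0.56), RNU4-2 (0.16), RNU5D-1 (-0.02) and RNU5E-1 (-0.21), were not called. They stood at only 1.77 to 6.03 CPM in whole cells. The whole annotated class of small nuclear RNAs was lower in 32 of 57 tested genes and higher in 2, with a median of -2.11. RNY1 (-0.08) and RNY3 (0.63), which are Y RNAs of cytoplasmic particles, were not called either. RN7SL2, the RNA of the signal recognition particle that targets ribosomes to the endoplasmic reticulum, had 1179, 630.1, 826 and 1391 CPM in whole cells and 1327, 1465, 2409 and 2123 in cytoplasm. It was called higher (log2 0.86, edgeR adjusted p = 0.015) although its groups overlapped. Its value was -0.42 with spike-in library sizes, and its call was lost without cytoplasm replicate 3 (0.72, edgeR adjusted p = 0.0529), without whole-cell replicate 3 (0.76, edgeR adjusted p = 0.0565), within prefix 1 (0.63, edgeR adjusted p = 0.0562) and without a composition factor (0.61, edgeR adjusted p = 0.0758). VTRNA1-3, a vault RNA chosen after its values were seen, had 2.26, 1.20, 1.25 and 3.64 CPM in whole cells and 5.75, 5.16, 7.65 and 8.28 in cytoplasm, without overlap (log2 1.73, edgeR adjusted p = 0.0011). RN7SK, RMRP, RPPH1 and RN7SL1 are listed at 0 in all 8 libraries, so their place was not measured here.

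Transcripts that host microRNAs were depleted from the cytoplasm: 23 of 30 tested members were lower and 1 higher, with a median of -1.29. The microRNA hairpins are cut out of these transcripts in the nucleus. The most abundant is MIR17HG (ENSG00000215417, chr13:91347820-91354579, plus strand), which contains 6 hairpins. The guide strands usually described for them are printed with the seed (bases 2 to 8, which pair with target mRNAs) in capitals, from RefSeq on GRCh38.p14; miR-17-5p and miR-20a-5p share a seed, as do miR-19a-3p and miR-19b-3p.
hsa-miR-17-5p: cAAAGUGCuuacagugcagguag
hsa-miR-20a-5p: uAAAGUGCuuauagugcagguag
hsa-miR-18a-5p: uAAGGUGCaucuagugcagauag
hsa-miR-19a-3p: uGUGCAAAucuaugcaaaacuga
hsa-miR-19b-3p: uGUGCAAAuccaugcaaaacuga
hsa-miR-92a-3p: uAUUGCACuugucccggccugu

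The host transcript MIR17HG had 226, 275, 215 and 151 CPM in whole cells and 29, 24.5, 17.1 and 19.8 CPM in cytoplasm, with no overlap (log2 -3.27, SE 0.24, edgeR adjusted p = 2.75e-09). These libraries count the host transcript and not the mature microRNAs. MIR223HG (-2.44) and MIRLET7A1HG (-1.56) were lower as well, as were MIR29B2CHG (-4.50; 6.77 CPM in whole cells, chosen after its values were seen) and MIR222HG (-4.70; 2.92 CPM). MIR497HG was the member called higher (0.90), at 2.71 CPM in whole cells and 5.04 in cytoplasm.

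Host genes of snoRNAs went both ways, as did all genes, with 8 of 21 lower (38.1%) and 5 higher (23.8%). Over all genes 27.6% were lower and 22.3% higher. The list median was -0.32, but 0.58 on gene-body counts and 0.08 within prefix 2. GAS5, whose introns carry many C/D snoRNAs (ENSG00000234741, chr1:173863900-173868882, minus strand), had 413, 277, 246 and 305 CPM in whole cells and 71.8, 69.2, 104 and 113 in cytoplasm. Every cytoplasm library was below every whole-cell library (log2 -1.79, edgeR adjusted p = 4.04e-07). SNHG20 (-1.04), SNHG15 (-0.99), SNHG12 (-0.97), SNHG7 (-0.73) and SNHG1 (-0.62) were lower; the SNHG15 call was lost on gene-body counts (-0.18, edgeR adjusted p = 0.382). SNHG16 was higher, from 119, 128, 131 and 118 CPM to 187, 201, 247 and 220 CPM (log2 0.78, but -0.47 with spike-in library sizes), as were SNHG6 (0.75) and SNHG29 (0.63).

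Many mRNAs known for retained or detained introns, that is, introns spliced late or on demand while the transcript waits in the nucleus, were depleted. Of 50 such mRNAs, 32 were lower and 4 higher, with a median of -0.69 on exon counts (-0.06 on gene-body counts). NKTR (ENSG00000114857, chr3:42600614-42648741, plus strand), which encodes a cyclophilin with an arginine-serine-rich tail, had 448, 464, 401 and 405 CPM in whole cells and 99.97, 95.7, 73.2 and 77.8 in cytoplasm. The groups were far apart (log2 -2.31, SE 0.24, edgeR adjusted p = 2.24e-07). OGT, the enzyme that adds O-GlcNAc to proteins (ENSG00000147162, chrX:71533083-71575897, plus strand), had 299, 340, 526 and 492 CPM against 107, 103, 119 and 121, also without overlap (log2 -1.88, edgeR adjusted p = 1.95e-07; chosen after its values were seen).

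The list holds many splicing factors, and they went different ways. Lower were the cyclins CCNL2 (-1.91) and CCNL1 (-1.63), the kinases CLK1 (-1.33), CLK4 (-1.20), CLK3 (-0.59) and CLK2 (-0.44), which phosphorylate SR proteins, the U1-associated LUC7L (-1.71), LUC7L3 (-1.19) and LUC7L2 (-0.97), the arginine-serine-rich proteins RSRP1 (-2.06), PNISR (-1.63), SRRM2 (-1.15) and SRRM1 (-0.69), and the export helicase DDX39B (-1.87). MAT2A, which makes S-adenosylmethionine and is known for a regulated intron, was lower by -1.43. The SR proteins themselves were split, with SRSF4 (-0.76) and SRSF11 (-0.71) lower, SRSF1 (0.31), SRSF2 (-0.03), SRSF5 (-0.22), SRSF6 (0.11), SRSF7 (0.06) and SRSF10 (-0.26) not called, and SRSF3 (0.33) and SRSF8 (0.58) higher, as were HNRNPK (0.52) and DNAJB1 (0.66, but -0.54 with spike-in library sizes). The related TRA2A (-0.23) and TRA2B (-0.14), the speckle protein gene SON (-0.09) and SNRNP70 (-0.37), of the U1 particle, were not called. The DNAJB1 call was lost without cytoplasm replicate 1 (0.52, edgeR adjusted p = 0.0566), without whole-cell replicate 3 (0.48, edgeR adjusted p = 0.0687) and without a composition factor (0.43, edgeR adjusted p = 0.104). Among genes of like exon length the list was uneven. With protein-coding genes in 5 equal bins of summed exon length, the shortest bin held 1 member, which was lower, and the next bin 8, of which 1 was lower and 2 higher (median 0.01, all genes 0.28). The middle bin had 4 of 9 lower (-0.37, all genes 0.16), the second longest 13 of 14 (-0.94, all genes 0.04) and the longest 13 of 18 (-0.70, all genes -0.16).

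Of the 10 genes with the largest falls at 10 CPM or more in whole cells, 5 were protein-coding, and some of these are known from tissues far from K562. LINC01028 (-5.20), AC245060.5 (-4.64), LINC00645 (-4.46), GS1-600G8.3 (-4.51) and AC009951.1 (-4.42), the last nested in ZEB2 on its own strand, are not annotated as protein-coding. The protein-coding genes were OR2B2 (-4.92) and OR51B6 (-4.90), which encode olfactory receptors, ATXN3L (-4.48), a retrotransposed copy of the ataxin gene ATXN3, FSIP2 (-4.23), which encodes a sperm sheath protein, and FRMD5 (-4.92). OR51B6, LINC01028 and LINC00645 are nested in another gene on the opposite strand, and ATXN3L and GS1-600G8.3 overlap each other. FSIP2 and FRMD5 also overlap another gene. Reads of all these genes cannot be told from those of the overlapping transcripts, whereas OR2B2 and AC245060.5 overlap no other gene. OR2B2 stood at 15.1, 18.7, 17.1 and 14.3 CPM in whole cells and at 0.397, 0.287, 0.588 and 0.781 in cytoplasm. FRMD5 stood at 17.3, 25.5, 29.4 and 15.5 CPM against 0.595, 0.573, 0.735 and 0.937. Every cytoplasm library was thus below 1 CPM for both genes, while the nucleus held 43.5 CPM of OR2B2 and 64.7 of FRMD5. ANKRD36, a gene with near-identical copies on the same chromosome, so that its reads may be shared, had 112, 114, 102 and 81.0 CPM against 10.1, 10.2, 7.5 and 8.59 (log2 -3.49; chosen after its values were seen).

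Intronic RNA, taken as gene-body minus exon counts and scaled as the exon counts, was depleted from the cytoplasm across nearly all genes. Of 13931 genes tested, 12718 (91.3%) had lower intronic counts in cytoplasm and 172 (1.23%) had higher ones, with a median log2 of -2.50. Scaled by their own typical gene, the same intronic counts gave 2849 lower and 3189 higher, since that scaling takes away the shift common to all introns. Genes that overlap no other gene give the cleanest measure: 3365 of 3449 were lower and 6 higher, with a median of -2.57 and quartiles of -2.99 and -2.13. For 2932 of these the exon counts were tested too, and their median was 0.18; the intronic fold change lay below the exonic one in 2881 of them. Of 923 whose exon counts were higher in cytoplasm, 904 had intronic counts that were lower.

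MAPK8, which encodes the stress kinase JNK1, shows the contrast (chr10:48306639-48439360, plus strand): its intronic level was 355, 469, 428 and 310 CPM in whole cells and 21.8, 19.1, 14.6 and 23.1 in cytoplasm (log2 -4.32), while its exonic log2 was 0.24. ADGRB3, an adhesion receptor gene with very long introns, had intronic levels of 808, 1191, 768 and 484 CPM against 45, 45, 30.6 and 43.9 (log2 -4.30), with an exonic log2 of -1.64. SESTD1 (-4.76) and CHIC1 (-4.50) were lower by similar amounts. The exceptions among these genes included TAF13, a subunit of the general factor TFIID, with intronic counts of 23.4, 33.9, 24.4 and 15.7 CPM in whole cells and 59.5, 58.7, 31 and 22 in cytoplasm, which overlapped (log2 0.81, edgeR adjusted p = 0.00884), and SNX12 (0.60). MAPK8, ADGRB3, SESTD1, CHIC1, TAF13 and SNX12 were chosen after their values were seen. The 5 largest intronic falls over all genes, in HS2ST1, MACC1, TAF15, AP2B1 and TULP4, and the largest rise, in TTLL3, are in genes that overlap another gene; their gene-body count was below the exon count in all 4 libraries of the lower group, so those intronic counts were set to 0 and no fold is given.

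In non-overlapping protein-coding genes the intronic share of a gene and its exonic fold change went in opposite directions. With the share taken from whole-cell replicates 3 and 4 and the fold change from prefix 1, so that no library served both, the median exonic log2 was 0.40, 0.33, 0.23, 0.11 and 0.04 from the lowest to the highest of 5 bins of the share. The percentage called lower went from 5.08 to 15.1 and the percentage called higher from 37.9 to 8.47 between the outer bins, against 10.1 and 24.7 over all 2954 genes with a share.

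The contrast of nuclear wash with nucleus, which uses none of the 8 libraries, shows in which of these fractions a transcript took the larger share relative to the typical gene; it does not give amounts. Spike-ins took 3.14 to 4.14% of exon counts in the wash and 0.972 to 1.04% in the nucleus. With library sizes taken from them, the median gene stood at -2.44 in the wash against the nucleus, and of the 4164 genes lower in cytoplasm and tested there by edgeR 4161 were below the nucleus in the wash and 0 above it. Below, "wash-enriched" and "nuclear" mean above and below the nucleus in the wash relative to the typical gene. Over all genes 5849 (36.7%) were above the nucleus in the wash and 5641 (35.4%) were below it. Of the 4406 genes lower in cytoplasm, 3890 (88.3%) were nuclear and 132 (3.0%) wash-enriched. Of the 3557 genes higher in cytoplasm, 19 (0.534%) were nuclear and 3120 (87.7%) wash-enriched. On the 8 libraries alone, 2868 of the 4406 lower genes passed the filter, against 3551 of the 3557 higher ones. The other lower genes needed the wash or nucleus libraries to be tested, so the 88.3% is not independent of the filter. Among 1814 lower protein-coding genes not nested in another gene, 1491 were nuclear by this measure, with a median log2 of -1.10 in cytoplasm, and 116 were wash-enriched, with a median of -0.52; with spike-in library sizes all 116 were below the nucleus in the wash, at a median of -1.77.

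The 116 wash-enriched genes were long, and SPTBN1 and IQGAP1 had the 2 largest losses among them. Their median summed exon length was 9.11 kb, against 6.92 kb for the nuclear ones and 5.14 kb for all protein-coding genes, and 64 of the 116 fell in the longest of the 5 length bins. The 116 were also more abundant, with a median of 73.7 CPM in whole cells, against 15.6 for the nuclear ones and 25.8 for all protein-coding genes. Length at like abundance was not tested. SPTBN1 (ENSG00000115306, chr2:54456285-54671445, plus strand), which encodes the beta chain of nonerythroid spectrin, had 248, 223, 229.6 and 225 CPM in whole cells and 39.3, 31.9, 41.5 and 57.9 CPM in cytoplasm. Its groups did not overlap (log2 -2.44, SE 0.16, edgeR adjusted p = 6.53e-10), and its mean was 741 CPM in wash and 464 CPM in nucleus libraries (log2 0.67, or -1.86 with spike-in library sizes). IQGAP1, an actin and calmodulin-binding scaffold (ENSG00000140575, chr15:90388218-90502243, plus strand), had 215, 229.5, 217 and 199 CPM against 36.1, 39.7, 41.9 and 51.2, again without overlap (log2 -2.35, edgeR adjusted p = 1.91e-10), with 647 CPM in the wash and 426 in the nucleus (0.60, or -1.91 with spike-in library sizes).

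DIAPH1, a formin that builds actin filaments (ENSG00000131504, chr5:141515016-141619055, minus strand; chosen after its values were seen), was tightly measured, with 746, 756, 749 and 746 CPM in whole cells and 336, 341, 340 and 366 in cytoplasm (log2 -1.12, SE 0.10, edgeR adjusted p = 3.33e-08). It reached 2772 CPM in the wash and 1130.0 in the nucleus (log2 1.30, or -1.24 with spike-in library sizes). Other genes of the 116, picked after their values were seen and with no count or test of what they encode, were PLEC (-1.47), DBN1 (-1.27) and AHNAK (-0.97), which encode plectin, drebrin and a giant membrane-associated protein, LARS2 (-1.14), GFM1 (-0.93), IARS2 (-0.70) and MMUT (-0.70), which encode mitochondrial enzymes and factors, and FAT1 (-0.82), ITGAV (-0.71), PTPRC (-0.70) and IGF2R (-0.62), which encode membrane proteins.

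**Figure D3:**
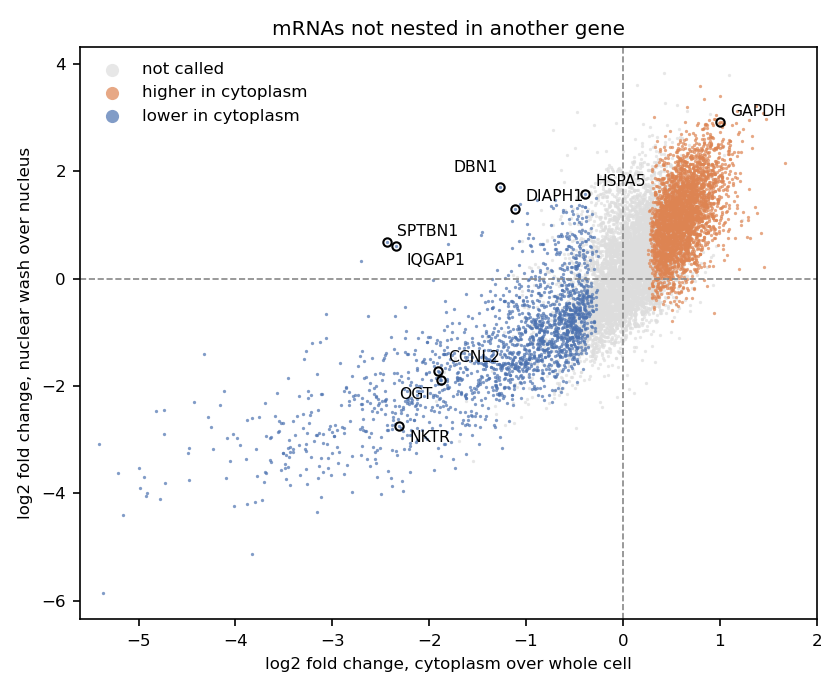
Log2 fold change of cytoplasm over whole cell (horizontal) against log2 fold change of nuclear wash over nucleus (vertical) for protein-coding genes not nested in another gene, coloured by the call on the horizontal contrast. The axes compare different libraries, but the low-count filter used all of them. NKTR, OGT and CCNL2 lie at the lower left and SPTBN1, IQGAP1, DBN1 and DIAPH1 at the upper left, both axes relative to the typical gene; with spike-in library sizes the median gene lies at -2.44 on the vertical axis.

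Large cytoskeletal scaffold mRNAs, a list written with this pattern already known, had 16 of 29 members lower and 0 higher, with a median of -0.62. Of the 29, 18 were wash-enriched and 7 nuclear, where 36.7 and 35.4% of all genes were. SPTAN1, the alpha partner of SPTBN1, was lower by -2.71, AKAP9 and ASPM, of the centrosome and spindle, by -2.06 and -1.95, and MACF1 and DST, giant linkers of microtubules and actin, by -1.74 and -1.60. CEP350 (-1.27), PCNT (-0.88) and UTRN (-1.01) followed. Similar proteins went differently: FLNA (-0.10), ACTN1 (0.08), TLN1 (0.13), MYH9 (0.21) and the erythroid SPTB (0.16), ANK1 (0.16) and EPB41 (0.25) were not called. TLN1, chosen after its values were seen, stood at 391, 348, 355 and 412 CPM in whole cells and 385, 385, 466 and 415 in cytoplasm, which overlap. In the longest length bin the 26 scaffold genes had a median of -0.75, where all genes of that bin had -0.16. Because the list was written with the pattern known, this gap cannot decide whether scaffold mRNAs fall beyond genes of like length, which was not tested.

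Exon length ordered protein-coding genes as a whole. From the shortest to the longest of the 5 bins of summed exon length the median log2 was 0.46, 0.28, 0.16, 0.04 and -0.16. In that order the percentage lower went from 11.8 to 31.2 and the percentage higher from 46.5 to 11.3. Genomic span gave a like order, with medians of 0.38, 0.25, 0.16, 0.06 and -0.09. GC content of the longest transcript gave a narrower one, 0.04, 0.10, 0.19, 0.22 and 0.18 from low to high, and within the middle bin of length the 5 values were 0.16, 0.18, 0.18, 0.19 and 0.04. Protein-coding genes with a single exon, not nested, stood at 0.53, with 81 of 157 higher and 15 lower.

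**Figure D4:**
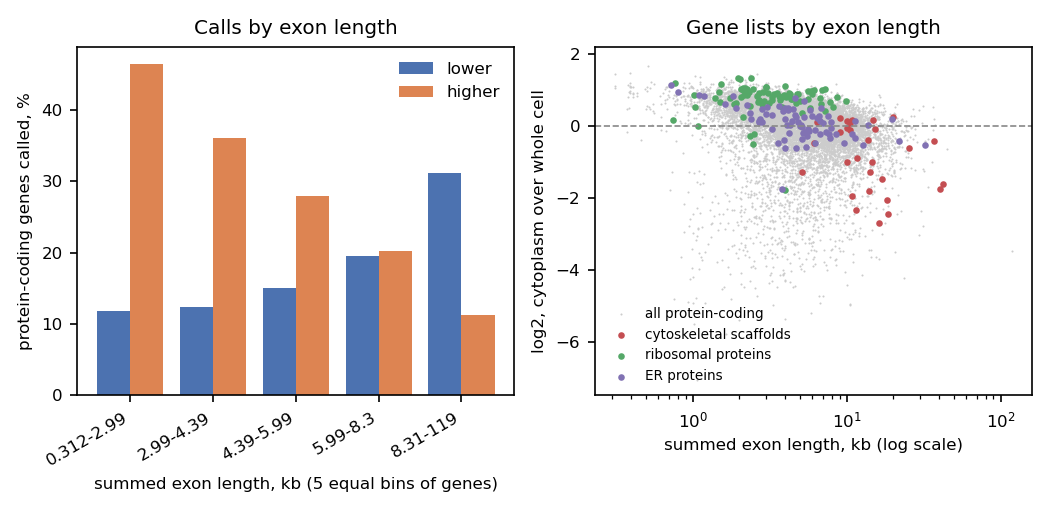
Left, percentage of protein-coding genes called lower and higher in cytoplasm by bin of summed exon length (kb). Right, log2 fold change against summed exon length (log axis) for all protein-coding genes and for 3 lists. Lower calls run from 11.8 to 31.2% across the bins, cytoskeletal scaffolds lie at the long end with a median of -0.62, and ribosomal proteins lie above the cloud with a median of 0.82, or -0.43 with spike-in library sizes.

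Messages of the translation machinery stood above the typical gene in cytoplasm. Of 80 mRNAs of cytosolic ribosomal proteins 70 were higher and 1 lower, with a median of 0.82 (-0.43 with spike-in library sizes, where the typical gene stood at -1.23). The lead over other genes was present at every length, with medians of 0.87, 0.82, 0.76, 0.72 and 0.75 from the shortest to the longest bin. RPLP0, a stalk protein of the large subunit (ENSG00000089157, chr12:120196686-120201235, minus strand), had 660.1, 628, 699 and 801 CPM in whole cells and 1488, 1336, 1648 and 1543 in cytoplasm, without overlap (log2 1.11, SE 0.15, edgeR adjusted p = 4.73e-06; -0.15 with spike-in library sizes). RPS2 (1.33; 0.07 with spike-in library sizes) and RPLP2 (1.33) were among the 10 genes with the largest gains. The other 8 were H2BC1, NME2 (1.46), H4C1 (1.44), PPIAP22 (1.40), MIF (1.36), RPL13P12 (1.32), RPL27 (1.30) and BANF1 (1.30), and all 10 stayed above 0 with spike-in library sizes, though none was called there. RPL27 had a split between replicates, with 168, 190.4, 267 and 496 CPM in cytoplasm against 141, 99.9, 120 and 95.8 in whole cells, and it was not called within prefix 1 (0.58, edgeR adjusted p = 0.0538).

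Translation factors had 31 of 42 higher and 2 lower (median 0.50; -0.74 with spike-in library sizes), with EIF5A (1.02), EEF1A1 (0.83) and PABPC1 (0.80) among them. Mitochondrial ribosomal proteins had 58 of 75 higher and 2 lower (0.64; -0.60 with spike-in library sizes), nuclear-encoded subunits of oxidative phosphorylation 51 of 76 and 4 (0.57; -0.67), proteasome subunits 24 of 33 and 2 (0.57; -0.68), glycolytic enzymes 12 of 17 and 0 (0.64; -0.65), and cytosolic chaperones and cytoskeletal proteins 25 of 37 and 0 (0.53; -0.69). GAPDH, the glycolytic dehydrogenase (ENSG00000111640, chr12:6533927-6538374, plus strand), had 869, 877, 910 and 1126 CPM in whole cells and 1920, 1778, 2188 and 1696 in cytoplasm, without overlap (log2 1.00, edgeR adjusted p = 1.41e-06; -0.25 with spike-in library sizes). ACTB, cytoplasmic beta actin, was higher by 0.94 (-0.29 with spike-in library sizes) and PFN1, which supplies actin monomers, by 1.02 (-0.22).

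NDUFV2 (-2.57), EIF4A1 (-2.39), RPL36A (-1.79) and PSMA2 (-1.50) were lower against the run of their lists, at 22.2, 12, 22.8 and 10.8 CPM in whole cells. All 4 overlap another annotated gene, as do 7998 of the 11297 protein-coding genes tested. EIF4A1 encodes the helicase of translation initiation. How reads shared by overlapping genes were handled is not given in the sources used here.

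Replication-dependent histone mRNAs end in a conserved stem-loop in place of a poly(A) tail and are exported without splicing; 40 of 47 tested members were higher and 2 lower, with a median of 0.91 (-0.33 with spike-in library sizes). Hairpins of 16 bases that recur in the transcripts of these genes gave the letters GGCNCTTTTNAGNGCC, which were then searched on the sense strand of all annotated protein-coding transcripts, with the outer 6 bases of each side paired. They occurred in 28 tested protein-coding genes (0.248%), 22 of them in the histone list from which the letters were read. It is shown for 2 gaining members and 1 losing member, from GENCODE 29, with the match in capitals; H4C9 lies at chr6:27139649-27139674 and H2AC8 at chr6:26217412-26217437, plus strand.
H4C9: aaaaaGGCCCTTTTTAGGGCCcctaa
H2AC8: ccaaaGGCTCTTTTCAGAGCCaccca
H2BC6: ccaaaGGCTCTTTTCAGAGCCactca

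Histone genes with the match had 17 of 22 higher and 1 lower (median 0.76), and those without it in their annotated transcripts, many of which end early, 23 of 25 and 1 (0.93). H4C9 and H2AC8 were higher by 1.10 and 0.99, and H2AC17 (1.48) and H4C1 (1.44) by more. H2BC1, a testis histone, had the largest gain at 10 CPM or more, with 4.14, 4.39, 5.01 and 4.78 CPM in whole cells and 14.9, 17.2, 10.9 and 16.6 in cytoplasm, without overlap (log2 1.68). H2BC6, which has the same stem-loop letters as H2AC8, was lower, with 15.5, 16.4, 15.8 and 13.7 CPM against 3.77, 5.59, 6.03 and 7.18 (log2 -1.42, but -0.21 on gene-body counts). It is annotated with up to 4 exons over 12597 bases and overlaps another gene, so its reads may be shared. H3C6 was the other member called lower (-1.52), at only 1.66 CPM in whole cells and 0.627 in cytoplasm.

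**Figure D5:**
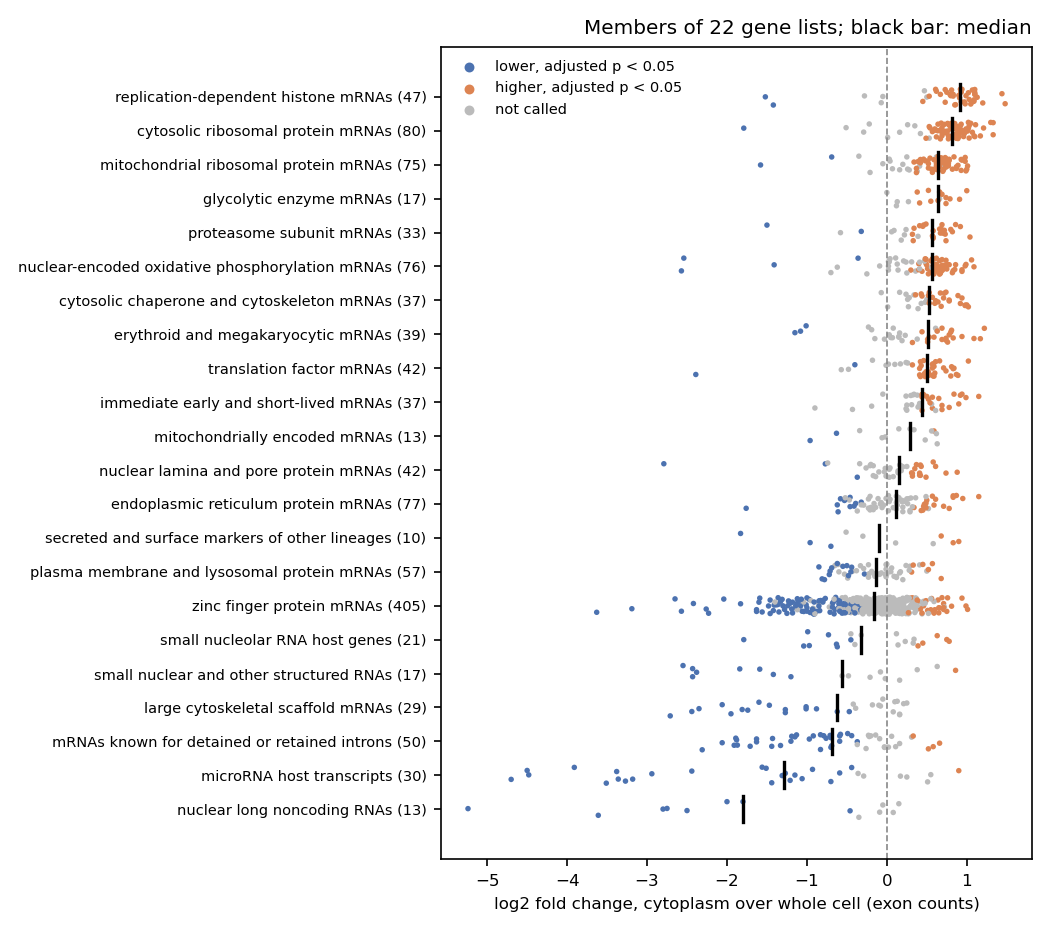
Log2 fold changes of exon counts, cytoplasm over whole cell, for the tested members of 22 gene lists (number tested in parentheses), coloured by the call; black bars are medians. Medians run from -1.80 for nuclear long noncoding RNAs to 0.91 for histone mRNAs; with spike-in library sizes every list median is below 0, while on gene-body counts structured RNAs, snoRNA hosts, plasma membrane and lysosomal, other-lineage and zinc finger lists lie above 0 and without a composition factor the reticulum and lamina lists lie below 0.

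Messages translated at the endoplasmic reticulum were near the typical gene, with 19 of 77 higher and 10 lower and a median of 0.12 (-0.12 without a composition factor, -1.11 with spike-in library sizes). Length ordered them too, from 0.49 in the shortest to -0.27 in the longest bin. Subunits of the oligosaccharyltransferase went both ways, with OST4 (1.15), DAD1 (0.95) and OSTC (0.61) higher and KRTCAP2 (-1.76) the largest fall of the list, at 7.91 CPM in whole cells. SEC61B (0.83) and SEC61G (0.83), of the translocon, were higher. Chaperones and co-chaperones of the lumen were split too: SDF2L1 (0.87) and DNAJB9 (0.48) were higher, DNAJC10 (-0.41) and SIL1 (-0.61) lower. HSP90B1, the reticular HSP90, had 1068, 866, 759 and 887 CPM in whole cells and 552, 582, 544 and 654 in cytoplasm, with no overlap (log2 -0.62, edgeR adjusted p = 0.00344). HSPA5, the chaperone BiP (ENSG00000044574, chr9:125234853-125241330, minus strand), had 418, 362, 435 and 451 CPM against 269.9, 271, 321 and 406, which overlap. Its call (log2 -0.39, edgeR adjusted p = 0.0433) was lost in 6 of the 8 fits that leave out a library, with values of -0.39 to -0.31: without cytoplasm replicate 1, 2 or 3 and without whole-cell replicate 1, 3 or 4. On gene-body counts HSP90B1 stood at 0.17, HSPA5 at 0.43 and SIL1 at 0.01. Of the 77 mRNAs, 66 were wash-enriched over the nucleus and 2 were nuclear, where 36.7 and 35.4% of all genes were.

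Plasma membrane and lysosomal messages had 13 of 57 lower (22.8%) and 6 higher (10.5%), with a median of -0.14 (0.11 on gene-body counts). Of the 57, 47 were wash-enriched, where 36.7% of all genes were. Over all genes 27.6% were lower and 22.3% higher, and of 11297 protein-coding genes outside the mitochondrial genome 2034 were lower and 3213 higher. HEXA, a lysosomal hexosaminidase chain (-0.81), GYPB, a glycophorin (-0.78), the receptor LRP8 (-0.72) and the integrin chains ITGAV (-0.71) and ITGA4 (-0.85) were lower, and GYPC (0.68, but -0.59 with spike-in library sizes and not called without a composition factor at 0.43, edgeR adjusted p = 0.0544), CD63 (0.57) and CD81 (0.52) higher. TFRC, the transferrin receptor (ENSG00000072274, chr3:196027183-196082189, minus strand), had 768, 940.4, 630.0 and 519 CPM in whole cells and 649, 653, 381 and 357 in cytoplasm, which overlap, although each cytoplasm library was below its same-numbered whole-cell library. It was not called in the fit of 16 libraries (log2 -0.49, edgeR adjusted p = 0.0761), and the call varied with the fit. It was called in the 8 libraries alone (-0.56, edgeR adjusted p = 0.0409), in a paired fit with a replicate block (-0.59, edgeR adjusted p = 2.21e-05), within prefix 1 (-0.40, edgeR adjusted p = 0.0429) and prefix 2 (-0.68, edgeR adjusted p = 3.02e-05), without a low-count filter (-0.48, edgeR adjusted p = 0.00488) and without a composition factor (-0.71, edgeR adjusted p = 0.0151). It was also called without cytoplasm replicate 1 (-0.64), cytoplasm replicate 2 (-0.62) or whole-cell replicate 4 (-0.60), with edgeR adjusted p from 0.0327 to 0.0397. Surface and secreted markers of other lineages split 3 lower and 3 higher of 10 tested (median -0.10, but 0.48 on gene-body counts), with FN1 (-0.96, but -0.34 on gene-body counts, edgeR adjusted p = 0.195) and PTPRC (-0.70) lower and KRT18 (0.90, but -0.36 with spike-in library sizes) higher.

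Of the erythroid and megakaryocytic messages 20 of 39 were higher and 3 lower (median 0.51; -0.73 with spike-in library sizes). GATA1, the erythroid master regulator, was higher by 0.74 and HBG1, a fetal globin, by 1.09 (-0.48 and -0.13 with spike-in library sizes; HBG1, whose neighbour HBG2 is a near-identical copy, was -2.03 on gene-body counts). Among the members lower were KEL, a blood group antigen (-1.08), and ITGA2B, a platelet integrin chain (-1.15). The ITGA2B call was lost within prefix 1 (-1.10, edgeR adjusted p = 0.0559) and on gene-body counts (-0.48, edgeR adjusted p = 0.087). Immediate early and short-lived messages had 19 of 37 higher and 0 lower (median 0.44; -0.78 with spike-in library sizes), among them NFKBIA (1.15), JUND (0.94) and MYC (0.44).

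Nuclear lamina and pore messages stood near the typical gene, with 15 of 42 higher, 3 lower and a median of 0.15 (-0.09 without a composition factor, -1.09 with spike-in library sizes). SYNE2, a giant nesprin of the nuclear envelope, was lower by -2.79, TPR, of the nuclear basket, by -0.77 and SUN1 by -0.37, and EMD, emerin, was higher by 0.88 (-0.38 with spike-in library sizes). The TPR call was lost on gene-body counts (-0.13, edgeR adjusted p = 0.631) and without whole-cell replicate 1 (-0.66, edgeR adjusted p = 0.0518). That of SUN1 was lost without cytoplasm replicate 1, 2 or 3 and without whole-cell replicate 2 or 3 (-0.37 to -0.31, edgeR adjusted p from 0.0583 to 0.0979). Zinc finger mRNAs had 101 of 405 lower (24.9%) and 30 higher (7.41%), with a median of -0.16 (0.02 on gene-body counts), where 2034 of 11297 protein-coding genes were lower and 3213 (28.4%) higher. Among them were ZNF506 (-3.19), ZNF785 (-1.63) and ZNF519 (-1.48) lower and ZNF689 (1.01, but -0.23 with spike-in library sizes) higher.

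Mitochondrially encoded mRNAs, made inside the organelle, had 2 of 13 lower and 1 called higher (median 0.29; -1.0 with spike-in library sizes). MT-ND6, the mRNA coded on the light strand, was lower by -0.96 and MT-ND3 by -0.63. On gene-body counts MT-ND6 stood at -0.13 and was not called (edgeR adjusted p = 0.551), and MT-ND3 stood at 0.21. Both have a single exon and overlap no other gene. Such genes moved by a median of 0.83 on gene-body counts, so these values carry that shift in scale. MT-CO1, a subunit of cytochrome c oxidase, was higher by 0.59 (-0.65 with spike-in library sizes), a call lost within prefix 1 (0.57, edgeR adjusted p = 0.0644) and without a composition factor (0.35, edgeR adjusted p = 0.0769). All 13 were wash-enriched over the nucleus, where 36.7% of all genes were.

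As shares of the exon counts outside rRNA, 6 of 9 classes did not overlap between the 4 whole-cell and the 4 cytoplasm libraries. Ribosomal protein mRNAs took 3.18% ± 0.211 (SD, n = 4) in whole cells and 5.16% ± 0.362 in cytoplasm, and histone mRNAs 0.546% ± 0.0404 and 0.934% ± 0.0196. MALAT1 went from 2.73% ± 0.216 to 0.347% ± 0.046, other long noncoding RNAs from 3.55% ± 0.105 to 2.79% ± 0.0423, pseudogenes from 1.47% ± 0.103 to 1.10% ± 0.0597 and small RNAs other than 7SL from 0.180% ± 0.0136 to 0.0818% ± 0.0111. Each of these had p = 0.0286 by exact permutation over libraries, two-sided, which is the lowest value possible with 4 against 4 libraries, and an adjusted p of 0.0429 over the 9 shares. The remaining protein-coding mRNAs took 83.3% ± 0.552 and 84.6% ± 1.34 and the 7SL RNAs 0.149% ± 0.0491 and 0.215% ± 0.0569, which overlapped (exact permutation test, adjusted p = 0.192 each). This test leaves the pairing by replicate number unused. For the remaining protein-coding mRNAs each cytoplasm library stood above its same-numbered whole-cell library, and for the 7SL RNAs each did except replicate 1.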

How the data were processed

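Total RNA from K562 fractions was extracted with Trizol LS, given synthetic yeast spike-ins and made into libraries with a SMARTer Stranded Total RNA kit, per the labels' protocols. The authors deposited raw read counts per gene over exons and over gene bodies, with no normalization. Tools listed by the submitters' processing notes are featureCounts 1.6.2, STAR 2.7.0a and cutadapt 2.5, with the build hg38; the strand setting, the annotation release and how shared reads were handled: not given in the sources used here. Symbols, positions and lengths came from GENCODE 29 on GRCh38 (57447 of 58051 identifiers matched).

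Exon counts of the 16 rRNA-depleted libraries were fitted together, 1 term per fraction (edgeR 4.0.16, R 4.3.3, filterByExpr, TMM, quasi-likelihood test, Benjamini-Hochberg over all tested genes, call at 0.05); SE is the log2 fold change divided by the root of F. Spike-ins were left out. Intronic counts are gene-body minus exon counts of multi-exon genes, set to 0 where negative (5.44% of all entries of the 8 libraries were negative), with the exon library sizes. Shares were compared by exact permutation (scipy 1.17.1). The fit was tested on simulated counts for this comparison over 15282 genes, and recovered 84 and 56% of genes at log2 -2 and -1 and 80 and 96% at 1 and 2. In it 50 genes were changed at each value, the rest were equal between cytoplasm and whole cell, and 8 of the rest were called. With few changes, balanced up and down, it cannot test the centring on the typical gene. Counting precision follows depth, 2616547 to 7955415 exon counts per library, and the labels mention no molecular identifiers.

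The column names in the labels give same-numbered libraries of the fractions a shared stem, whose meaning is not stated. The numbers were taken to pair the libraries on that ground. Same-numbered cytoplasm and whole-cell libraries deviated together from their group means (correlation 0.104, 0.282, 0.115 and 0.186 over 15940 genes for replicates 1 to 4). Other pairs were not correlated, so a difference shared by a prefix could also give these values. The main fit leaves the pairing unused. No pair of replicates agreed within sampling noise (chi-square per degree of freedom 3 to 16.2). Genes are named by rule: the 10 largest falls and rises among called genes without overlap of libraries at 10 CPM or more; per list the 3 largest falls and 1 largest rise at 5 CPM; landmarks; and the 5 largest intronic changes each way at 10 CPM. Other members of a list are given by their value alone, and others are marked as chosen after their values were seen. Members, lists (19 written by hand, 22 in all) and tests were chosen with earlier results of these data known. Alternatives were other scalings, no low-count filter, DESeq2 1.42.0, the 8 libraries alone, a replicate block, each prefix, gene-body counts, fits without mitochondrial and rRNA genes, and each library left out. Classes by protein sequence were planned and are not analysed here. A few results are not reported here.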

Additional observations from a re-analysis of the deposited data

Results flagged for a closer look

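Values that stood apart from the other 3 libraries of their group, by Dixon's test at the 95% level, were 7 of 224 groups of 4 checked, where chance flags about 1 in 20. In cytoplasm, MALAT1 was low in replicate 3 (2545 CPM, others 3330.0 to 3391), LINC01028 was low in replicate 4 (0.156 CPM, others 0.397 to 0.441), BANF1 was high in replicate 4 (57.0 CPM, others 39.2 to 42.2) and DIAPH1 was high in replicate 4 (366 CPM, others 336 to 341). In whole cells, RPL36A was high in replicate 2 (27.7 CPM, others 20.7 to 21.5), GAPDH was high in replicate 4 (1126 CPM, others 869 to 910), and the share of mitochondrially encoded mRNAs was high in replicate 4 (4.76%, others 3.98 to 4.10%).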

How the results depend on the processing

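With spike-in library sizes the exon counts gave 14599 genes lower and 0 higher, and the intronic counts 2 higher. With those sizes the following fell below 0: ACTB (-0.29), AHSP (-0.10), DNAJB1 (-0.54), EIF5A (-0.21), EMD (-0.38), GAPDH (-0.25), GATA1 (-0.48), GYPC (-0.59), HBG1 (-0.13), KRT18 (-0.36), MRPS18B (-0.23), MT-CO1 (-0.65), NFKBIA (-0.10), NORAD (-0.41), OST4 (-0.09), PFN1 (-0.22), PSMB6 (-0.22), RN7SL2 (-0.42), RPLP0 (-0.15), SNHG16 (-0.47), UQCR10 (-0.16) and ZNF689 (-0.23), and the medians of the lists of chaperone and cytoskeleton mRNAs (-0.69), cytosolic ribosomal proteins (-0.43), endoplasmic reticulum (-1.11), erythroid and megakaryocytic (-0.73), glycolysis (-0.65), short-lived mRNAs (-0.78), mitochondrial ribosomal proteins (-0.60), mitochondrially encoded mRNAs (-1.0), lamina and pore (-1.09), oxidative phosphorylation (-0.67), proteasome (-0.68), histones (-0.33) and translation factors (-0.74). The amount of spike-in per sample is not in the labels, so these are not amounts of RNA. All 4164 genes lower in the main scaling that were tested there were lower again. Since those sizes moved the median gene by -1.23, this outcome is no check of the calls.

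Gene-body counts gave 6426 genes higher, with 5 lists below the median of all genes in place of 9 (also 5 with no low-count filter). Genes with a single exon moved by 0.83 there, a shift in scale that the values below include. The signs that changed were those of HBG1 (-2.03), HSP90B1 (0.17), HSPA5 (0.43), MT-ND3 (0.21), SIL1 (0.01), SUN1 (0.03), the list medians of plasma membrane and lysosome (0.11), other lineages (0.48), structured RNAs (0.62), snoRNA hosts (0.58) and zinc fingers (0.02), and the small RNA share (0.00216 percentage points). Without a composition factor 1400 genes were higher, and the reticulum (-0.12) and lamina and pore (-0.09) medians reversed. With spike-in library sizes, an alternative chosen after seeing the data, 0 of the genes lower in cytoplasm were above the nucleus in the wash, in place of 132. Within prefix 2 the median of snoRNA hosts was 0.08; the cause was not tested. Intronic counts gave 2849 lower and 3189 higher when scaled by their own TMM factors, and 3369 lower and 6 higher over genes overlapping no other gene, an alternative chosen after seeing the data.

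With the replicate block, the paired fit of the 8 libraries gave 3588 lower and 3521 higher on exons and 11065 lower and 199 higher on introns; it changed the call of TFRC and of no other named gene. DESeq2 called 4255 lower and 3725 higher, with 4241 of the 4406 and 3511 of the 3557 genes kept. No low-count filter gave 6084 lower, and the 8 libraries alone 3278. Leaving out each library gave 4278 to 4568 lower and 2742 to 3520 higher on exons, and 12937 to 13019 lower and 151 to 165 higher on introns. The interaction of prefix with fraction was called in 0 of 13654 genes by edgeR (778 at an unadjusted p under 0.05; lowest adjusted p 0.221), and 7641 of 7642 called genes had the same sign in both prefixes. Depth limits the low genes, and the strand setting those that overlap.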
